A study of Mus musculus with 9 samples.

Results

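Mutations in a group of genes that remodel nucleosomes or write, read and erase marks on histones and DNA cause neurodevelopmental disorders with intellectual disability. The expression of 42 such genes was described here in the newborn mouse dorsal telencephalon, across 3 Tcf4 genotypes. They were given as a list of symbols, drawn up with earlier results of these data known, by a rule that names gene function and disease and no measured value. They were matched by symbol to 42 of the 41128 genes in the count table. All 42 passed the filter on low counts, which 15271 genes passed in all, and the lowest count of any of them in any library was 178.

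The dorsal telencephalon, the part of the forebrain that forms the cortex and hippocampus, was dissected from pups of the strain labelled B6:129SF2/J on the day of birth (P0). 3 libraries were made from TCF4 knockouts (KO), 3 from TCF4 heterozygotes (Het) and 3 from wild-type pups (WT). The labels name no Cre driver, transgene or treatment and do not give the part of Tcf4 that the allele lacks. Whether libraries of 1 genotype came from separate pups is not given either, so the p-values measure the spread between these libraries, which may be technical.

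The product of Tcf4 is an E protein, a transcription factor that binds E-box sequences as a dimer, and loss of one human copy causes Pitt-Hopkins syndrome, itself an intellectual disability disorder. The genes described here act on the template that such factors bind. BAF (SWI/SNF) and CHD complexes use ATP to move nucleosomes. Methyltransferases of the Kmt2 and Setd1 type mark active enhancers and promoters on histone H3 lysine 4, Ehmt1 and Ehmt2 write a repressive mark on lysine 9, Polycomb enzymes one on lysine 27, and acetyltransferases and deacetylases set histone acetylation. In the developing cortex these machines are known for their part in the switch from progenitor to neuron, and many of their human disorders arise from loss of a single copy.

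The 9 libraries held between 22291940 and 29445788 counts. Gene-level Tcf4 counts did not follow the genotype labels: Tcf4 was at 712, 728 and 583 CPM (counts divided by the library's total and its TMM factor) in WT, 821, 651 and 719 in Het and 638, 633 and 611 in KO. The KO-to-WT log2 difference of −0.10 ± 0.09 (SE) did not pass edgeR's quasi-likelihood test (adjusted p = 0.36), although without WT replicate 3 it did (−0.20, adjusted p = 0.046). These counts therefore do not check the labels, and WT, Het and KO below are the groups as labelled. KO replicate 3 differed from the other libraries in its sex-linked genes, with 2730 counts of Xist, where the others held at most 3, and 2 counts of the Y-linked Ddx3y. KO replicates 1 and 2 held 1211 and 1040 counts of Ddx3y, so KO replicate 3 did not come from the same pup as they did. For the other libraries this cannot be read from the sex-linked genes. KO replicates 1 and 2 were the closest pair within a genotype. The chi-square per degree of freedom between their counts over tested genes was 2.75, against 7.15 to 18.9 for the other pairs. Whether they came from the same pup cannot be read from this value.

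Change with genotype was widespread in these libraries. In the KO-to-WT comparison 52.8% of all tested genes passed an adjusted p of 0.05, 26.5% higher and 26.3% lower. Summed levels of 12 cell cycle genes were 248 to 258 CPM in WT, 355 to 373 in Het and 456 to 479 in KO, with 12 of 12 genes higher in KO. Those of 8 intermediate progenitor genes were 103 to 121 CPM in WT, 234 to 262 in Het and 406 to 439 in KO, with all 7 tested genes higher in KO. Those of 9 dorsal telencephalon genes were 1610 to 1900, 2060 to 2300 and 2240 to 2290 CPM (6 higher and 1 lower in KO), and those of 9 radial glia genes 1390 to 1470, 1170 to 1280 and 1270 to 1370 CPM (4 higher, 2 lower).

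Markers of several other cell types ran the other way. Summed over 12 striatal projection neuron genes, the level was 574 to 642 CPM in WT, 225 to 251 in Het and 194 to 207 in KO (11 of 12 lower in KO). Gene by gene their fall was larger. The median log2 fold change of the 12 was −2.92 in KO and −2.88 in Het against WT, and −0.03 in KO against Het. The 12 interneuron genes gave 823 to 885, 612 to 700 and 585 to 645 CPM (1 higher, 9 lower), the 8 astrocyte genes 846 to 901, 442 to 484 and 368 to 424 CPM (7 lower), the 8 oligodendrocyte lineage genes 415 to 453, 229 to 232 and 227 to 259 CPM (8 lower), and the 8 microglia genes 103 to 116, 56.4 to 62 and 64.5 to 68.3 CPM (6 lower). The 8 endothelial genes gave 204 to 207, 246 to 279 and 276 to 288 CPM (4 higher, 1 lower), the 7 choroid plexus genes 3.01 to 5.19, 2.05 to 19.6 and 9.99 to 29.6 CPM (2 higher), and the 7 erythroid genes 190 to 362, 210 to 307 and 292 to 368 CPM (1 higher). No marker was at 0 in every library. In dissected whole tissue, the extent of the tissue taken, fewer cells of a type and less RNA per cell cannot be told apart. The part of these marker shifts in the values below was not tested.

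The chromatin genes were mostly higher in the mutants, by small amounts. In KO against WT, 26 of the 42 rose and 3 fell, that is 61.9% and 7.14%, beside 26.5% and 26.3% of all tested genes. Their median log2 fold change was 0.22, against 0.01 over all genes. The sizes were not large: the median absolute log2 fold change of the 42 was 0.22, where that of all genes was 0.30. Of the 42, 4 changed by at least 1.5-fold, all upward. Of all genes 10.8% did so upward, a share near that of the 42, and 11.6% downward. In Het against WT, 21 rose and 4 fell (50.0% and 9.52%, beside 22.5% and 23.4% of all genes, 45.9% in either direction), with a median of 0.17 against 0.01. Chd2 and Kat6b passed 1.5-fold there, both upward, beside 7.51% of all genes upward and 8.98% downward. The KO-to-WT and Het-to-WT comparisons share the 3 WT libraries.

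**Figure D1:**
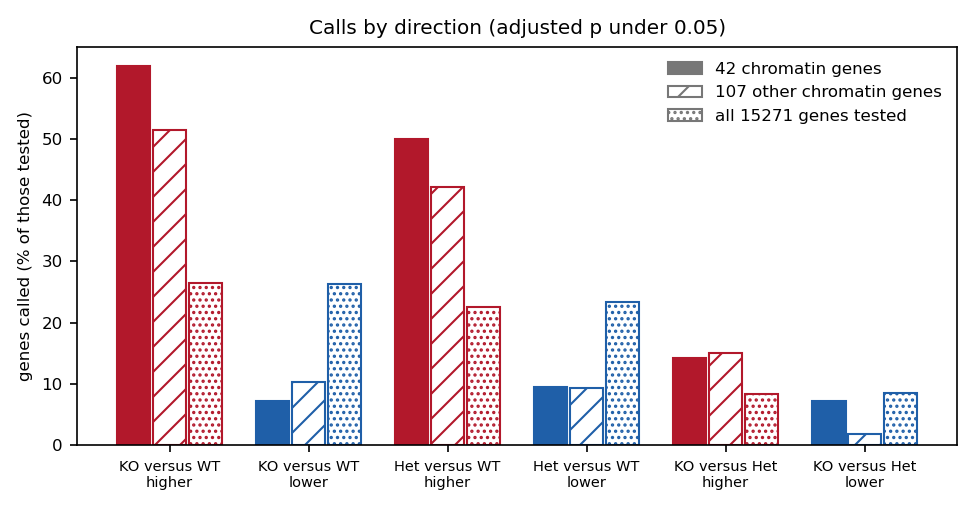
Share of genes called higher (red) or lower (blue) at an adjusted p under 0.05, in % of the genes tested (y axis), for the 3 genotype comparisons (x axis); solid bars are the 42 chromatin genes, hatched bars 107 other genes of the same machines and dotted bars all 15271 genes tested. In KO versus WT the 42 genes stand at 61.9% higher and 7.14% lower, and all genes at 26.5% and 26.3%.

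Read library by library, 27 of the 42 genes had all 3 KO libraries above all 3 WT libraries and 3 had them all below, beside 31.9% and 30.8% of all genes. Among the 42 genes, 24 had their lowest WT value in replicate 3, 25 their lowest Het value in replicate 2 and 21 their lowest KO value in replicate 1, where 32.5%, 29.7% and 31% of all genes did. Without WT replicate 3, the KO-to-WT calls were 22 up and 3 down, with a median of 0.19, and without KO replicate 1 they were 24 and 2. The Het-to-WT counts without Het replicate 2 were 23 higher and 2 lower.

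The 42 genes differed by a wide margin in abundance. Per kilobase of merged exons in the GENCODE M21 annotation, the WT level was lowest for Chd7, at 1.54 ± 0.18 CPM per kb (SD, n = 3). It was highest for Chd3, an ATPase of the NuRD corepressor complex, at 112 ± 4.3. The BAF subunits Smarcc2 and Smarca4 followed at 93.6 ± 5.0 and 70.1 ± 0.80 CPM per kb, and Ehmt2 at 63.5 ± 2.9. Mbd5, Hdac8 and Hdac4 lay near Chd7, at 1.74 ± 0.098, 1.76 ± 0.15 and 1.82 ± 0.15, and these neighbours did not differ beyond their spread. The median of the 42 was 9.63 CPM per kb, that of all tested genes 4.28, and 30 of the 42 lay above the latter. They are long genes: the merged exons of all 42 exceeded the median of tested genes, 4346 bases, and their own median was 12038 bases.

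**Figure D2:**
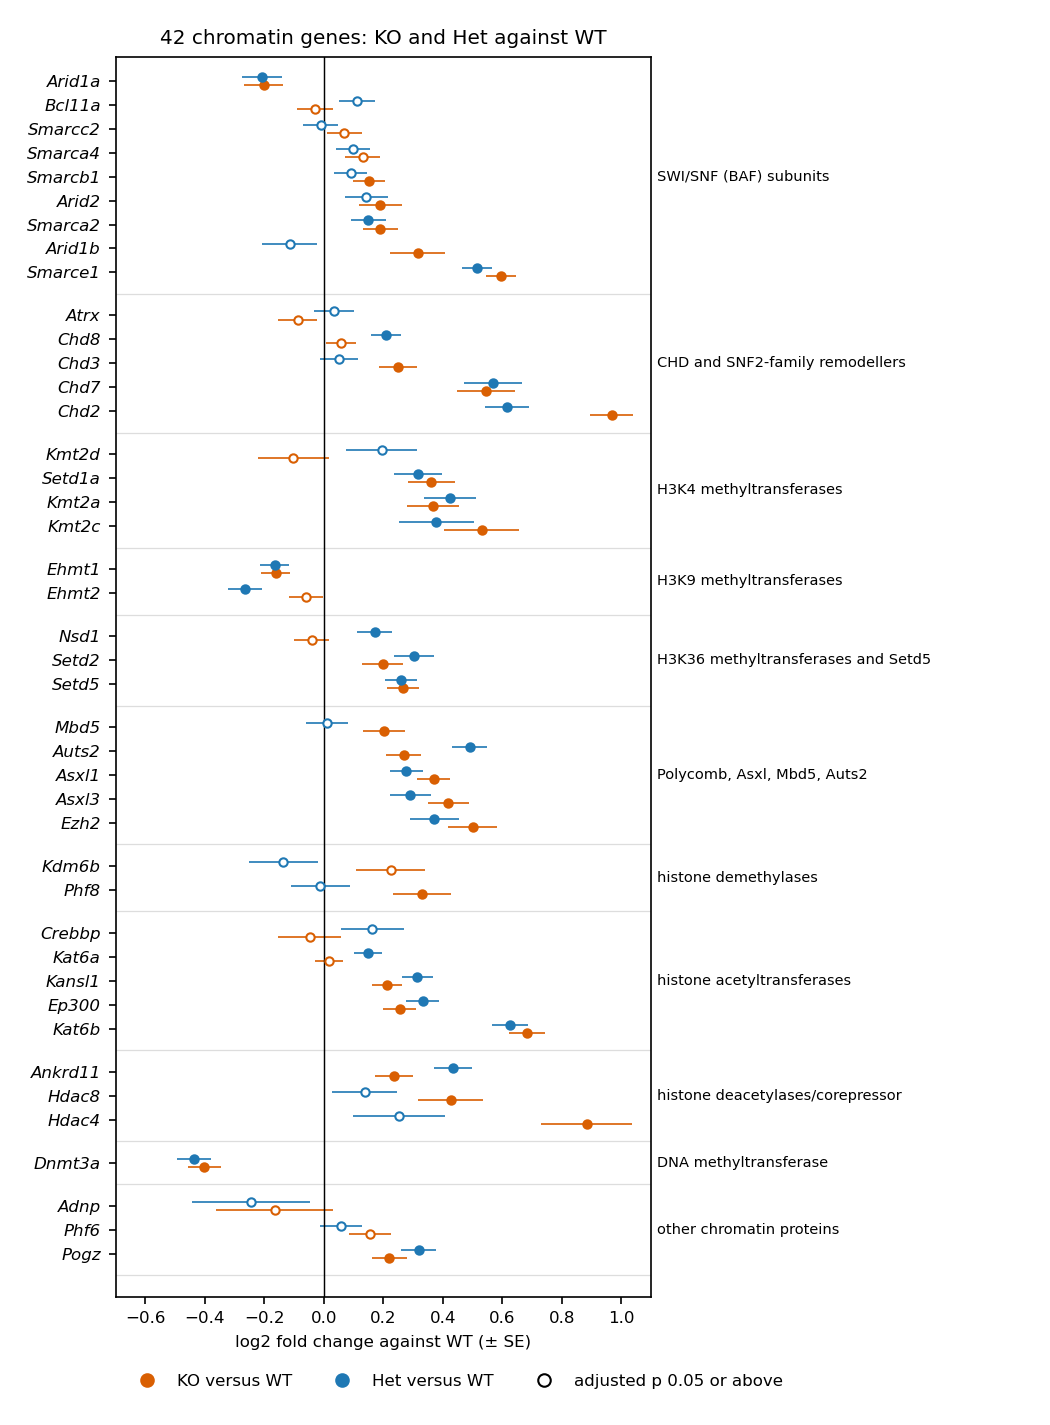
Log2 fold change against WT (x axis) with its SE for each of the 42 genes (y axis), grouped by role; orange is KO versus WT, blue Het versus WT, and open symbols did not pass an adjusted p of 0.05. Most filled symbols lie right of 0, with Chd2 farthest right in KO at 0.97 and Dnmt3a farthest left in KO at −0.40.

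Chd2 rose most in KO. It encodes a chromodomain helicase whose loss causes a childhood epileptic encephalopathy, and lies at chr7:73426638-73541830 (mm10). Its expression was 52.0, 46.0 and 47.1 CPM in WT, 78.8, 67.2 and 76.6 in Het and 91.7, 103 and 89.7 in KO. The 3 genotypes did not overlap and Het lay between WT and KO. The log2 fold change was 0.97 ± 0.07 in KO and 0.62 ± 0.07 in Het against WT (edgeR quasi-likelihood test, adjusted p = 1.4e-08 and 4.4e-06), and 0.35 ± 0.07 in KO against Het (adjusted p = 0.0027). All 3 calls held under every alternative run. Chd2 shares 18.67% of its 31-base words with other gene models, and its exons overlap those of 1810026B05Rik, also known as Chaserr, a long noncoding RNA on the same strand that is known to hold Chd2 expression down.

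The values of 1810026B05Rik were looked at after those of Chd2 had been seen. It was a low-count transcript, at 37 to 148 counts a library. Its level was 2.71, 3.03 and 2.15 CPM in WT, 2.05, 2.57 and 5.12 in Het and 1.5, 1.41 and 1.49 in KO, so the KO libraries lay below the other 6. It fell by 0.84 ± 0.30 on the log2 scale in KO against WT (edgeR quasi-likelihood test, adjusted p = 0.032), and was at 0.31 ± 0.28 in Het (adjusted p = 0.39). The fall lost its call without WT replicate 1 or 2 or any 1 KO library (adjusted p = 0.075 to 0.1) and with limma on log2(FPKM + 1) (adjusted p = 0.064). Reads from the shared exons cannot be assigned to one of the overlapping genes. Any link between the level of 1810026B05Rik and that of Chd2 was not tested.

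Hdac4, a class IIa deacetylase that shuttles between nucleus and cytoplasm, rose in KO. At chr1:91928779-92195699, it was at 26.8, 31.3 and 28.2 CPM in WT, 40.3, 30.0 and 32.8 in Het and 60.7, 57.1 and 41.6 in KO. The KO libraries were above all others, and Het overlapped WT. The log2 fold change was 0.88 ± 0.15 in KO against WT (edgeR, adjusted p = 8e-04) and 0.25 ± 0.15 in Het against WT (adjusted p = 0.21). KO against Het gave 0.63 ± 0.15 (adjusted p = 0.019), a call lost without Het replicate 2 or 3 or KO replicate 1 or 2 (adjusted p = 0.055 to 0.081). Gene models on the opposite strand overlap 3536 bases of its exons, and 21.93% of its 31-base words are shared; the overlapping Gm26720 held 0 counts in every library.

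Kat6b, the catalytic subunit of a MOZ/MORF histone acetyltransferase complex and the gene of genitopatellar syndrome, rose in both mutants. At chr14:21481434-21672478, it was at 73.2, 69.3 and 66.6 CPM in WT, 101, 105 and 117 in Het and 112, 116 and 108 in KO. The mutant libraries were all above WT and mixed with each other. The log2 fold change was 0.68 ± 0.06 in KO and 0.63 ± 0.06 in Het (edgeR, adjusted p = 9.1e-08 and 4.4e-07).

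Smarce1, a small HMG-domain subunit of BAF complexes, lies at chr11:99209047-99231017 and shares 16.23% of its 31-base words with other gene models. It was at 159, 167 and 169 CPM in WT, 228, 241 and 238 in Het and 248, 252 and 248 in KO. The 3 genotypes did not overlap, but the step from Het to KO, 0.08 ± 0.05, did not pass the test (edgeR, adjusted p = 0.3). Against WT the log2 fold change was 0.60 ± 0.05 in KO and 0.51 ± 0.05 in Het (adjusted p = 4.6e-08 and 4.4e-07). Chd2 and Smarce1 were the 2 of the 42 genes whose libraries rose without overlap from WT through Het to KO, beside 5.23% of all genes, and 0 fell that way, beside 5.25%.

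Dnmt3a fell most in both mutants. It encodes a de novo DNA methyltransferase that sets neuronal methylation around birth, and lies at chr12:3806007-3914443. Its level was 194, 176 and 175 CPM in WT, 143, 130 and 130 in Het and 140, 135 and 138 in KO. Every mutant library was below every WT library. The log2 fold change was −0.40 ± 0.06 in KO and −0.44 ± 0.06 in Het (edgeR, adjusted p = 1.4e-05 and 9.1e-06), and both calls held under every alternative run.

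**Figure D3:**
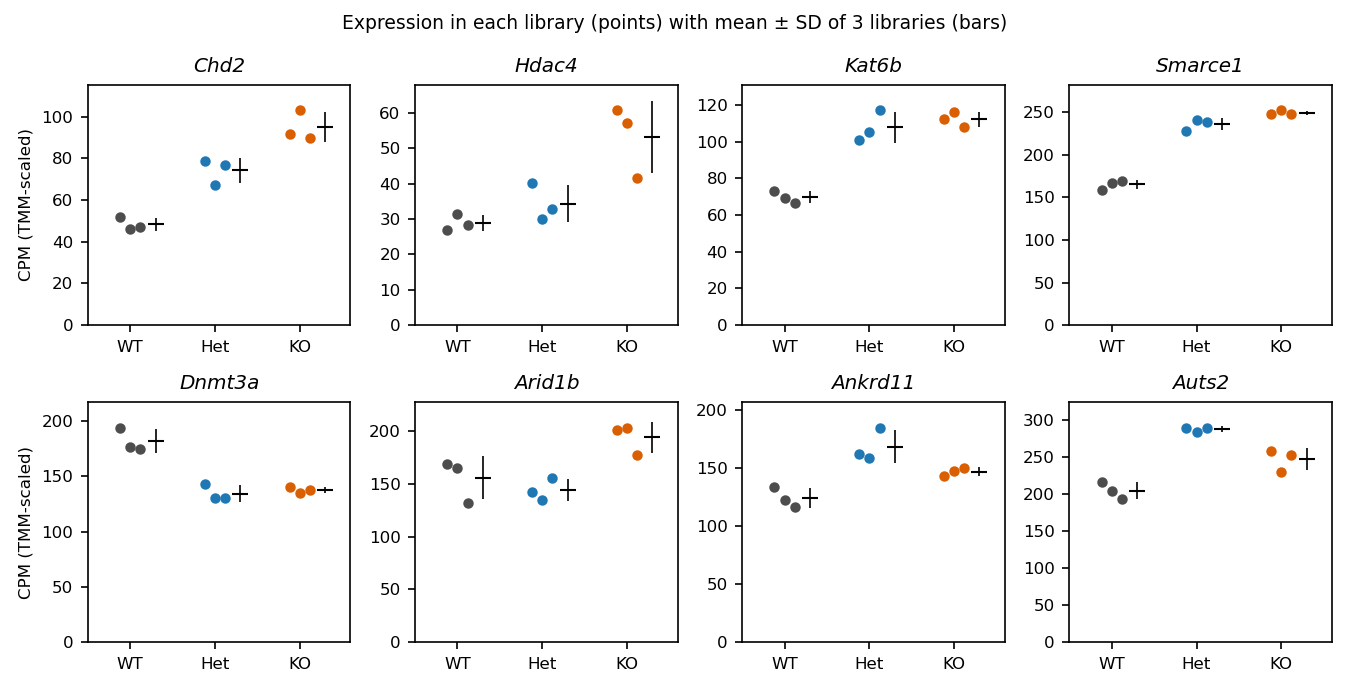
Expression in CPM (y axis, from 0) in each of the 9 libraries by genotype (x axis) for 8 of the genes; points are libraries and the black marks the mean ± SD of 3. Chd2 steps from 46.0 to 52.0 CPM in WT to 89.7 to 103 in KO, Dnmt3a drops from 175 to 194 CPM in WT to 130 to 143 in the mutants, and Auts2 and Ankrd11 are highest in Het.

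Upstream sequences are shown for genes that rose and for genes that fell in KO, so that their base composition and E-box letters can be compared. RefSeq windows of 300 bases around a transcription start (GRCm38.p6) were found for 31 of the 42 genes, 39 windows in all; none was matched for Chd2 or Smarce1. The 2 largest rises and 2 largest falls among those with one are printed. Each line holds the 250 bases before a RefSeq start, 5′ to 3′ on the gene's strand, with CG dinucleotides in capitals. The windows are Hdac4 at chr1:92180342-92180591 and Arid1a at chr4:133756770-133757019 on the minus strand, and Kat6b at chr14:21499520-21499769 and Dnmt3a at chr12:3806730-3806979 on the plus strand. Those of Hdac4, Kat6b and Dnmt3a lie at starts inside the GENCODE span of the gene.
Hdac4: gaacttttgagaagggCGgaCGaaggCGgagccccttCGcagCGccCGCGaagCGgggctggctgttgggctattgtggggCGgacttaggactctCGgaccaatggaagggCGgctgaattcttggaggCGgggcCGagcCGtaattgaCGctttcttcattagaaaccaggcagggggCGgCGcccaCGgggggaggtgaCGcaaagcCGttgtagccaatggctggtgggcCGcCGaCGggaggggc
Kat6b: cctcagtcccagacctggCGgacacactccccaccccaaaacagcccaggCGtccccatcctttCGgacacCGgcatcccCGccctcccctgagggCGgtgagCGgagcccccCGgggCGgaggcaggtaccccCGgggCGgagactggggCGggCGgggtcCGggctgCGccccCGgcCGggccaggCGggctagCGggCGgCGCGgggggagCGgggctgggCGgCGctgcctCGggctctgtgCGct
Dnmt3a: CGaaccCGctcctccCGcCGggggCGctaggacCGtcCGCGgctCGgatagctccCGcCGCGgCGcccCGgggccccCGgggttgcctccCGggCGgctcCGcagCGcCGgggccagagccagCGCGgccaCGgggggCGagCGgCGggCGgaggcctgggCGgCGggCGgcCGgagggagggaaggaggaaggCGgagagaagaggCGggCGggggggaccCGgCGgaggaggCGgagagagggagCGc
Arid1a: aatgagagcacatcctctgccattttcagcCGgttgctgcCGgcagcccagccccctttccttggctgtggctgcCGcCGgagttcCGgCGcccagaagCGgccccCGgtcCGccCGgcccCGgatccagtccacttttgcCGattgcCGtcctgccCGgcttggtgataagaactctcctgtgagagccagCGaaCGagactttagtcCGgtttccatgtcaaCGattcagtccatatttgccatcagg

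All 4 stretches are rich in CG, with 23 in Hdac4, 27 in Kat6b, 38 in Dnmt3a and 18 in Arid1a. The genes that rose and those that fell share this. Over the 39 windows of the chromatin genes the median was 31 CG dinucleotides, against 20 in 14763 windows of tested genes and 7 in all 32851 windows, and 74.4% held at least 20, against 50.3% and 26.5%. 3 E-box forms were searched on both strands. The first was CAGGTG, which reads as CACCTG on the other strand. The second was CAGATG, which reads as CATCTG there, and the third the palindrome CAGCTG. None of them was found in the 4 printed stretches. At least 1 was found in 17.9% of the chromatin genes' windows, those of Ehmt1, Mbd5, Adnp, Setd1a, Kmt2a, Kmt2d and Hdac8, against 39.1% of windows of tested genes and 44.3% of all. By form, the first was in 5.13% against 18.3% of windows of tested genes, the second in 7.69% against 12% and the third in 10.3% against 15.6%. These are matches of letters in short windows and describe neither binding nor its absence.

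Of the 9 genes of BAF complexes, which slide and evict nucleosomes, 5 rose and 1 fell in KO, beside 26.5% and 26.3% of all genes, and 2 rose and 1 fell in Het, where the share that rose is near the 22.5% of all genes. Beside Smarce1, the risers in KO were Arid1b, Arid2, Smarca2 and Smarcb1. Smarca2, the alternative ATPase, was at 0.19 ± 0.06 and the core subunit Smarcb1 at 0.15 ± 0.06 (edgeR, adjusted p = 0.013 and 0.028). Both calls, and that of Arid2, were lost when single libraries were left out (WT replicate 1 for each of the 3; adjusted p up to 0.071, 0.12 and 0.13). In Het, Smarca2 was at 0.15 ± 0.06 (adjusted p = 0.049), a call lost in 10 of 21 alternatives. Smarca4, the main ATPase in neural progenitors, Smarcc2 and Bcl11a passed no comparison. Of the 5 CHD and SNF2-family genes, Chd2, Chd7 and Chd3 rose in KO, and Chd2, Chd7 and Chd8 in Het. The shares of all genes that rose were 26.5% and 22.5%. Atrx passed no comparison, at −0.09 ± 0.07 in KO (edgeR, adjusted p = 0.28).

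The largest BAF subunits went apart. Arid1a and Arid1b are mutually exclusive DNA-binding subunits of the complex, and Arid1b is among the genes most often mutated in intellectual disability. Arid1a, at chr4:133679008-133756769, was at 332, 341 and 295 CPM in WT, 284, 256 and 299 in Het and 282, 290 and 269 in KO. Its KO libraries were below WT, by 0.20 ± 0.07 on the log2 scale, and Het was at −0.21 ± 0.07 (edgeR, adjusted p = 0.017 and 0.018). The KO call was lost without WT replicate 1 or 2 or KO replicate 3 (adjusted p = 0.056 to 0.078) and when trends on gene length and GC content were removed (−0.08, adjusted p = 0.27) or FPKM tested with limma (adjusted p = 0.063 and 0.064 with the 2 pseudocounts). The Het call ended when WT replicate 1, WT replicate 2 or Het replicate 2 was dropped (adjusted p = 0.064 to 0.14), and with library totals, limma or the trends removed (adjusted p = 0.065 to 0.15).

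Arid1b, at chr17:4994332-5347656, was at 169, 165 and 132 CPM in WT, 142, 135 and 155 in Het and 201, 203 and 177 in KO. KO stood above both other genotypes, which overlapped. It rose by 0.32 ± 0.09 against WT and 0.43 ± 0.09 against Het (edgeR, adjusted p = 0.012 and 0.0077), while Het against WT was at −0.11 ± 0.09 (adjusted p = 0.34). The log2 ratio of Arid1a to Arid1b within a library does not depend on scaling: it was 0.97, 1.04 and 1.16 in WT, 1.0, 0.92 and 0.95 in Het and 0.49, 0.51 and 0.60 in KO. The KO ratio was 0.52 below WT. An exact permutation test of the differences between the 3 genotypes gave p = 0.0071 (adjusted p = 0.019 over 8 paralog pairs; the smallest p the 1680 arrangements allow is 0.0036).

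Of the 4 methyltransferases of histone H3 lysine 4, Kmt2a, Kmt2c and Setd1a rose in both mutants. Of all genes, 26.5% rose in KO and 22.5% in Het. Kmt2a, the gene of Wiedemann-Steiner syndrome, was at 0.37 ± 0.09 in KO and 0.42 ± 0.09 in Het against WT, and Setd1a at 0.36 ± 0.08 and 0.32 ± 0.08 (edgeR, adjusted p = 0.0036, 0.0018, 0.001 and 0.0037). Of Setd1a's 31-base words 51.84% are shared with other gene models, so its level is less certain. Kmt2c and Kmt2d, paralogous enhancer enzymes of which Kmt2d is the gene of Kabuki syndrome, parted. Kmt2c, at chr5:25271798-25498783, was at 77.2, 71.0 and 61.6 CPM in WT, 96.1, 79.3 and 97.3 in Het and 91.0, 117 and 94.9 in KO.

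Every mutant library of Kmt2c was above WT, by 0.53 ± 0.13 in KO and 0.38 ± 0.13 in Het (edgeR, adjusted p = 0.0066 and 0.037). The Het call ended when WT replicate 2, WT replicate 3, Het replicate 1 or Het replicate 3 was dropped (adjusted p = 0.075 to 0.12), with the replicate number as a block (adjusted p = 0.073) and with no filter on low counts (adjusted p = 0.072). Kmt2d, at chr15:98831669-98871204, was at 83.8, 80.8 and 64.3 CPM in WT, 93.6, 74.6 and 93.8 in Het and 70.7, 76.9 and 65.7 in KO, with all genotypes overlapping. It was at −0.10 ± 0.12 in KO and 0.19 ± 0.12 in Het (adjusted p = 0.5 and 0.21). The log2 ratio of Kmt2c to Kmt2d was −0.12, −0.19 and −0.06 in WT, 0.04, 0.09 and 0.05 in Het and 0.36, 0.61 and 0.53 in KO. The ratio rose without overlap from WT through Het to KO, by 0.62 between WT and KO (exact permutation test, p = 0.0036, the smallest possible, adjusted p = 0.014).

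Ehmt1 and Ehmt2, the paired enzymes of histone H3 lysine 9 dimethylation and in the case of Ehmt1 the gene of Kleefstra syndrome, did not rise against WT in either mutant. Ehmt1, at chr2:24789928-24919614, was at 137, 139 and 139 CPM in WT, 124, 119 and 127 in Het and 119, 125 and 127 in KO. The mutants were all below WT, by a small margin, with log2 fold changes of −0.16 ± 0.05 in KO and −0.17 ± 0.05 in Het (edgeR, adjusted p = 0.0098 and 0.01). The KO call was lost without KO replicate 1 (adjusted p = 0.067) and the Het call without Het replicate 2 (adjusted p = 0.075). Limma on FPKM ended both (adjusted p = 0.057 in KO, 0.084 and 0.085 in Het), and library totals the Het call (adjusted p = 0.069).

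Ehmt2, at chr17:34898469-34914052, was at 330, 358 and 357 CPM in WT, 276, 286 and 308 in Het and 343, 339 and 321 in KO. Het alone was low: it fell by 0.26 ± 0.06 against WT (edgeR, adjusted p = 0.0013; 0.15 with trends on gene length and GC content removed), and KO was 0.20 ± 0.06 above Het (adjusted p = 0.022) and at −0.06 ± 0.06 against WT (adjusted p = 0.4). The KO-to-Het call was lost without Het replicate 1 or 2 or KO replicate 1 or 2 (adjusted p = 0.089 to 0.1). The log2 ratio of Ehmt1 to Ehmt2 was −1.33 ± 0.053 in WT, −1.23 ± 0.069 in Het and −1.43 ± 0.098 in KO (SD, n = 3; exact permutation test, p = 0.029, adjusted p = 0.046). That call held only with all 9 libraries or without KO replicate 3; leaving out any other library gave an adjusted p of 0.063 to 0.18.

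Setd2, the enzyme of lysine 36 trimethylation, Nsd1, a lysine 36 dimethylase and the gene of Sotos syndrome, and Setd5 rose in Het. Setd2 and Setd5 also rose in KO, where 26.5% of all genes did, beside 22.5% in Het. Setd5 was at 0.27 ± 0.05 in KO and 0.26 ± 0.05 in Het (edgeR, adjusted p = 4.6e-04 and 8.1e-04), and Setd2 at 0.20 ± 0.07 and 0.30 ± 0.07 (adjusted p = 0.022 and 0.0017). The KO call of Setd2 was lost without WT replicate 2 or 3 or KO replicate 2 or 3 (adjusted p = 0.069 to 0.13). Nsd1, at chr13:55209782-55318325, was among the 3 genes nearest to no change in KO. It was at 194, 184 and 165 CPM in WT, 207, 197 and 206 in Het and 169, 182 and 176 in KO.

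Nsd1 in KO overlapped WT (−0.04 ± 0.06; edgeR, adjusted p = 0.59), and in Het was above both, by 0.17 ± 0.06 over WT (adjusted p = 0.028), with KO at −0.21 ± 0.06 against Het (adjusted p = 0.022). The Het-to-WT call ended when WT replicate 3, Het replicate 1 or Het replicate 3 was dropped (adjusted p = 0.052 to 0.17) or only Het and WT were fitted (adjusted p = 0.051). The KO-to-Het call was lost without Het replicate 3 or KO replicate 1 (adjusted p = 0.052 and 0.12) and with limma on FPKM (adjusted p = 0.068).

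All 5 genes of the Polycomb group and its partners rose in KO, and 4 of them in Het, beside 26.5% and 22.5% of all genes. Ezh2, the methyltransferase of histone H3 lysine 27 and a gene of dividing progenitors, was at 39.3, 41.1 and 39.8 CPM in WT, 57.7, 47.6 and 50.3 in Het and 51.7, 55.6 and 62.7 in KO. Both mutants were above WT, by 0.50 ± 0.08 and 0.37 ± 0.08 (edgeR, adjusted p = 7.9e-05 and 0.0015). Asxl1 and Asxl3, partners of the histone H2A deubiquitinase and genes of Bohring-Opitz and Bainbridge-Ropers syndromes, rose by 0.37 ± 0.05 and 0.42 ± 0.07 in KO and by 0.28 ± 0.06 and 0.29 ± 0.07 in Het (adjusted p = 2.8e-05, 7e-05, 6.1e-04 and 0.0023). Mbd5 rose in KO, by 0.20 ± 0.07 (adjusted p = 0.022), and was at 0.01 ± 0.07 in Het. The KO call was lost without WT replicate 2 or 3 or KO replicate 3 (adjusted p = 0.057 to 0.11). Exons of Orc4, on the opposite strand, overlap 136 bases of those of Mbd5. Orc4 rose by 0.24 ± 0.08 in KO and 0.26 ± 0.08 in Het (edgeR, adjusted p = 0.015 and 0.014).

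Auts2 and Ankrd11 were named after their values were seen, because both were higher in Het than in KO. Auts2, a Polycomb partner gene tied to autism, was at 216, 205 and 193 CPM in WT, 290, 284 and 290 in Het and 258, 230 and 253 in KO. The 3 genotypes did not overlap and KO lay between the others. The log2 fold change was 0.49 ± 0.06 in Het and 0.27 ± 0.06 in KO against WT (edgeR, adjusted p = 4e-06 and 9.2e-04), and −0.22 ± 0.06 in KO against Het (adjusted p = 0.014, but 0.1 without KO replicate 2 and 0.1 with trends on gene length and GC content removed).

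Ankrd11, a corepressor that recruits deacetylases and the gene of KBG syndrome, was at 134, 123 and 117 CPM in WT, 162, 159 and 185 in Het and 143, 148 and 150 in KO. The order of the genotypes was that of Auts2. It rose by 0.43 ± 0.06 in Het and 0.24 ± 0.06 in KO (edgeR, adjusted p = 3.9e-05 and 0.0049). KO against Het was at −0.20 ± 0.06 (adjusted p = 0.042), a call lost without WT replicate 2, Het replicate 3 or any 1 KO library (adjusted p = 0.051 to 0.17), with the replicate number as a block (adjusted p = 0.071) and with limma on FPKM (adjusted p = 0.1).

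Hdac8, the cohesin deacetylase on the X chromosome, rose by 0.43 ± 0.11 in KO (edgeR, adjusted p = 0.0033) and was at 0.14 ± 0.11 in Het (adjusted p = 0.33). All 3 of Hdac4, Hdac8 and Ankrd11 thus rose in KO, beside 26.5% of all genes. Of the demethylases, Phf8 rose by 0.33 ± 0.10 in KO (adjusted p = 0.0098, but 0.064 without WT replicate 1) and was at −0.01 ± 0.10 in Het. Kdm6b, which removes the Polycomb mark, passed no comparison, at 0.23 ± 0.12 in KO and −0.14 ± 0.12 in Het (adjusted p = 0.13 and 0.38). 4 of the 42 genes are X-linked, Atrx, Phf6, Phf8 and Hdac8. In KO replicate 3, the library with Xist, they were at 259, 93.4, 35.4 and 11.6 CPM, against 230 and 242, 85.8 and 87.1, 34.8 and 37.3, and 11.4 and 11.3 in KO replicates 1 and 2.

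Among the acetyltransferases, Kat6b, Ep300 and Kansl1 rose in both mutants, beside 26.5% of all genes in KO and 22.5% in Het. Ep300, at chr15:81585351-81652077, rose by 0.26 ± 0.06 in KO and 0.33 ± 0.06 in Het, and Kansl1, the gene of Koolen-de Vries syndrome, by 0.21 ± 0.05 and 0.31 ± 0.05 (edgeR, adjusted p = 9.4e-04, 1.3e-04, 0.0021 and 9.5e-05). Crebbp, the other gene of Rubinstein-Taybi syndrome, passed no comparison, at −0.05 ± 0.11 in KO (adjusted p = 0.74). The log2 ratio of Crebbp to Ep300 was 0.29 lower in KO than in WT and did not pass the exact permutation test (p = 0.093, adjusted p = 0.12), though without WT replicate 3 it did (0.40 lower, adjusted p = 0.029).

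Kat6a, the paralog of Kat6b, was the gene nearest to no change in KO. At chr8:22859535-22943259, it was at 159, 164 and 161 CPM in WT, 180, 175 and 181 in Het and 162, 162 and 166 in KO. KO overlapped WT (0.02 ± 0.05; edgeR, adjusted p = 0.77) and the Het libraries lay above both (0.15 ± 0.05 over WT, adjusted p = 0.017). The log2 ratio of Kat6a to Kat6b was 1.11, 1.24 and 1.27 in WT, 0.84, 0.74 and 0.63 in Het and 0.52, 0.49 and 0.62 in KO. It fell without overlap from WT to both mutants, by 0.66 in KO (exact permutation test, p = 0.0036, adjusted p = 0.014).

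Chd7 and Chd8 showed the same kind of separation. Chd7, the gene of CHARGE syndrome at chr4:8690406-8867659, was at 23.8, 20.8 and 19.0 CPM in WT, 30.3, 28.4 and 35.5 in Het and 29.7, 30.1 and 33.1 in KO. It rose by 0.55 ± 0.10 in KO and 0.57 ± 0.10 in Het (edgeR, adjusted p = 1.7e-04 for each), with every mutant library above WT. Chd8, a leading autism gene at chr14:52198151-52257780, was at 144, 136 and 135 CPM in WT, 155, 158 and 166 in Het and 139, 147 and 146 in KO.

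Chd8 rose in Het, by 0.21 ± 0.05 over WT (edgeR, adjusted p = 0.0032). KO was at 0.06 ± 0.05 against WT and −0.15 ± 0.05 against Het, and neither passed (adjusted p = 0.35 and 0.054). The log2 ratio of Chd7 to Chd8 was −2.68 ± 0.11 in WT, −2.33 ± 0.12 in Het and −2.20 ± 0.069 in KO (SD, n = 3; exact permutation test, p = 0.011, adjusted p = 0.021). Without WT replicate 3 this call was lost (KO 0.42 above WT, adjusted p = 0.057).

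**Figure D4:**
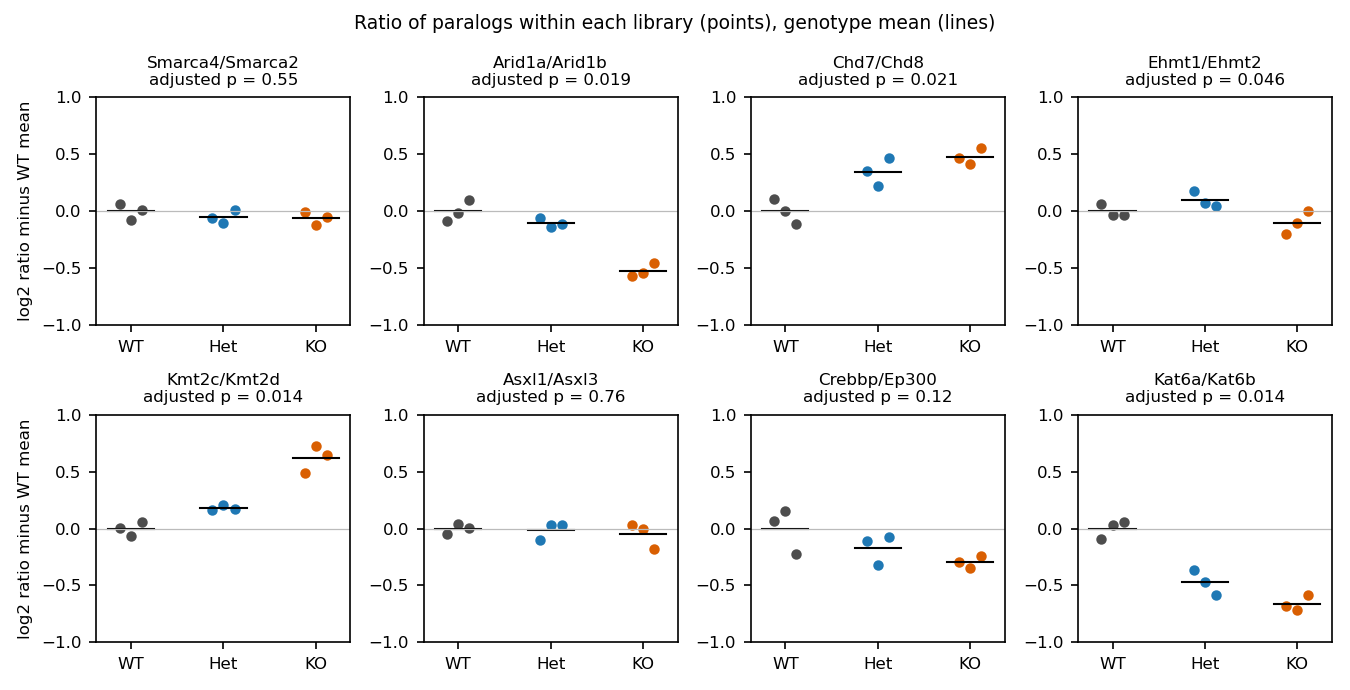
Log2 ratio of the named paralogs within each library, minus the WT mean (y axis), by genotype (x axis), for 8 pairs; points are libraries, lines are genotype means, and each panel gives the exact permutation p adjusted over the 8 pairs. Kmt2c/Kmt2d rises to 0.62 and Kat6a/Kat6b drops to −0.66 in KO, while Smarca4/Smarca2 and Asxl1/Asxl3 stay near 0.

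Of the 8 pairs compared, 5 thus passed the test. Smarca4 to Smarca2 differed between KO and WT by −0.06 (exact permutation test, p = 0.48, adjusted p = 0.55) and Asxl1 to Asxl3 by −0.05 (p = 0.76, adjusted p = 0.76), values that do not show the pairs to act alike.

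Bcl11a completes the 3 genes nearest to no change in KO, with Kat6a and Nsd1. This zinc-finger protein of BAF complexes, at chr11:24078056-24174123, was at 322, 311 and 302 CPM in WT, 341, 322 and 346 in Het and 279, 311 and 327 in KO. KO overlapped WT (−0.03 ± 0.06; edgeR, adjusted p = 0.71). Of the remaining chromatin proteins, Pogz rose by 0.22 ± 0.06 in KO and 0.32 ± 0.06 in Het (adjusted p = 0.0046 and 3.4e-04), and Phf6 and Adnp passed no comparison. Adnp, at −0.17 ± 0.20 in KO (adjusted p = 0.52), was the least certain of the 42, since 81.18% of its 31-base words are shared and its exons overlap those of Gm20716 on the same strand, which held 0 counts in every library. The genes that passed none of the 3 comparisons were Smarca4, Smarcc2, Bcl11a, Atrx, Kmt2d, Kdm6b, Crebbp, Phf6 and Adnp. The matching share of all genes was not counted.

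In KO against Het, 6 of the 42 genes were higher and 3 lower, beside 8.30% and 8.44% of all genes. The higher were Chd2, Hdac4, Arid1b, Chd3, Phf8 and Ehmt2, and the lower Auts2, Ankrd11 and Nsd1. The median was 0.04, against 0.00 over all genes, and 1 gene, Hdac4, passed 1.5-fold, upward, beside 4.81% of all genes, 1.98% upward and 2.83% downward. These calls were the least stable. Without Het replicate 2, KO replicate 1 or KO replicate 2, 2 genes were higher, and the number lower was 5 without Het replicate 2 and 1 without Het replicate 3, KO replicate 1 or KO replicate 2. Chd2 and Arid1b kept their calls under every alternative run, and Chd3 lost its call (0.20 ± 0.06, adjusted p = 0.044) in 17 of 21.

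Other genes of the same machines, 107 in 8 lists that share no gene with the 42, also leaned upward. In KO 55 rose and 11 fell (51.4% and 10.3%, beside 26.5% and 26.3% of all genes), with a median of 0.18. By at least 1.5-fold 14 changed, all upward. This is near the 10.8% of all genes that did so upward, and 11.6% of all genes did so downward. In Het 45 rose and 10 fell (42.1% and 9.35%, beside 22.5% and 23.4% of all genes). In KO against Het 16 were higher and 2 lower (15% and 1.87%, beside 8.30% and 8.44%). Their libraries rose without overlap from WT through Het to KO in 19 genes and fell so in 0, beside 5.23% and 5.25% of all genes.

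The lists differed in their counts, which were not compared with each other by a test, and each stands beside the same 26.5% higher and 26.3% lower of all genes in KO. Histone demethylases rose in 11 of 14 genes and fell in 0, led by the lysine 4 demethylase Kdm5a (1.26 ± 0.12) and the lysine 9 demethylase Kdm3a (1.15 ± 0.08; edgeR, adjusted p = 9.9e-06 and 5.1e-09). Of 16 CHD, ISWI and INO80 remodellers 11 rose and 2 fell, led by Cecr2 (1.69 ± 0.18) and Baz2b (0.90 ± 0.08; adjusted p = 1.3e-06 and 1.4e-07). Of 12 writers, erasers and readers of DNA methylation 7 rose and 1 fell. Tet2, which oxidises methylcytosine, went from 13.1 ± 2.2 to 45.6 ± 2.2 CPM (SD, n = 3), a log2 fold change of 1.80 ± 0.18, and Uhrf1, the maintenance methylation cofactor of dividing cells, was at 0.58 ± 0.10 (adjusted p = 3.4e-05 and 1.2e-04). Tet2 moved opposite to Dnmt3a.

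Of 9 further deacetylases 5 rose and 1 fell, with Hdac7 at 0.85 ± 0.08 and Hdac9 at 0.71 ± 0.08 (edgeR, adjusted p = 2.7e-07 and 1.7e-06). Of 12 acetyltransferases and complex subunits 6 rose and 3 fell, with Kat2b at 0.97 ± 0.14 and Ing5 at 0.91 ± 0.15 (adjusted p = 1.5e-05 and 6.6e-05). Of 13 other lysine methyltransferases and Polycomb genes 5 rose and 1 fell, with Asxl2 at 0.99 ± 0.10 and Jarid2 at 0.50 ± 0.07 (adjusted p = 3.4e-07 and 6.3e-06). Of 19 BAF and PBAF subunits 7 rose and 2 fell, with Bcl11b, a neuronal subunit that also marks striatal and deep-layer neurons, at −0.50 ± 0.07 and Actl6a, the progenitor-type subunit, at 0.44 ± 0.09 (adjusted p = 1.2e-05 and 4.8e-04). Of 12 lysine 4 genes 3 rose and 1 fell, a share of rises near that of all genes, with Kmt2e at 0.38 ± 0.06 and Ash2l at 0.35 ± 0.05 (adjusted p = 9.5e-05 and 7.4e-06). The intermediate progenitor and cell cycle markers given above rose in the same libraries, while the radial glia markers were mixed. The part of these markers in the values here was not tested.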

How the data were processed

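Per the labels' protocols, total RNA from dissected newborn dorsal telencephalon was made into libraries with the NEBNext Ultra RNA kit. The submitters' processing notes name TopHat2 2.0.9, Bowtie2 2.0.6, HTSeq 0.6.1, DESeq 1.10.1 and mm10, with no role or order, and do not say whether the counting used strand. The authors deposited read counts and FPKM values for 41128 genes in 9 libraries. Dividing the deposited counts by library total and by 1 length per gene returned the deposited FPKM (largest log2 difference 1.2e-14), and that length was 7.31% to 85.3% of a member's merged exons, so genes were compared as CPM per kb of merged exons and FPKM entered only alternatives and no main test.

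Counts were tested in R 4.3.3 with edgeR 4.0.16 (filterByExpr, minimum count 10 and minimum total 15; TMM; robust quasi-likelihood F tests over all 9 libraries, 6 residual degrees of freedom), with Benjamini-Hochberg adjustment over 15271 genes, which held 99.9% of the counts, and a threshold of 0.05. Paralog ratios used CPM plus 0.5 and exact permutation tests. The scripts were tested on simulated counts of 15271 genes. The KO-to-WT test recovered 67.2% of 1.5-fold, 80.6% of 2-fold and 95.5% of 4-fold changes, and made 16 false calls. Only 67, 67 and 66 genes were changed by these folds, and the 16 false calls stand beside those recovered among them. In the data 52.8% of genes were called, so these rates do not carry over to it. Smaller changes were not simulated. Alternatives were other scalings and filters, DESeq2 1.42.0, limma 3.58.1 on log2 FPKM, a replicate block, offsets for length and GC content (mgcv 1.9.3), and leaving out each library.

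The 42 genes, the 107 others and the marker lists were chosen with earlier results of these data known. Values in every library were given for genes called with at least 1.5-fold change, for both genes of paralog pairs whose ratio passed, and for the 3 nearest to no change in KO; for other genes the rule allowed up to 2 examples a role. Further genes of the BAF, Polycomb and acetyltransferase groups, and library values of Dnmt3a, Ezh2, Auts2, Ankrd11 and the X-linked genes, go beyond it and were added after their values were seen. Of each other chromatin list, the 2 called genes with the largest change in KO were named. Shared 31-base words and overlaps came from GENCODE M21, and promoter windows from RefSeq (GRCm38.p6). Exons of 9 of the 42 genes overlap those of an opposite-strand gene among the 41128 counted. No protein sequences were used.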

Additional observations from a re-analysis of the deposited data

How the results depend on the processing

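No call of the 42 genes changed direction in any of the 21 alternatives. Calls kept in all of them were 21 of 29 in KO against WT, 19 of 25 in Het against WT and 2 of 9 in KO against Het. Over the alternatives, the number higher in KO against WT ran from 22 to 30, and their median from 0.19 to 0.25. Genes lower in KO against WT (3) were 1 with limma on log2(FPKM + 1) or log2(FPKM + 0.1). Genes lower in Het against WT (4) were 2 with library totals, both limma fits, or trends on length and GC content removed. Genes lower in KO against Het (3) were 5 with upper-quartile factors, library totals, the filter of 1 CPM in 3 libraries, only the 2 genotypes fitted, or Y-linked genes and Xist removed, 6 with DESeq2, and 1 with both limma fits.

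Leaving out each library gave 22 to 28 higher and 2 to 3 lower in KO against WT, 18 to 23 higher and 2 to 5 lower in Het against WT (2 lower without Het replicate 2), and 2 to 6 higher and 1 to 5 lower in KO against Het. Over all genes, the calls ran from 7050 to 8365 in KO against WT (8061 with all libraries), 5806 to 7068 in Het against WT (7011) and 1432 to 2561 in KO against Het (2556; 1467 without KO replicate 1 and 1432 without KO replicate 2). The paralog pairs passing were 4 to 5 without single libraries. The cause of these changes, and of those under the other alternatives, was not tested.

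Replicate numbers gave no sign of pairing the libraries. Correlations of same-numbered libraries' deviations ran from −0.106 to 0.0844, and those of differently numbered ones from −0.137 to 0.0982. These values do not show that the libraries were unpaired. The replicate block gave 7775, 6641 and 2166 genes called in the 3 comparisons. Of the 42, it gave 26 higher and 3 lower, 19 and 4, and 5 and 2. Most of the calls lost were of genes that moved by less than 1.5-fold, but so were most of the calls made. In the 3 comparisons, 4 of 29, 2 of 25 and 1 of 9 calls reached 1.5-fold.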
